A study of Mus musculus with 6 samples.

Results

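TRIM proteins are a family of ubiquitin ligases and related proteins, and the transcripts of 41 of them were followed in regulatory T cells (Tregs, CD4 T cells that carry Foxp3 and hold back immune responses) from mouse liver. Members were all rows of the count table whose gene name begins with Trim followed by a digit, which gave 41 of 13623 rows. All 41 are annotated as protein-coding, and the GENCODE M21 annotation holds 68 protein-coding genes with such a name. The mRNA libraries were 3 of Altre knockout mice (Altre-KO) and 3 of mice with an intact Altre gene (Altre-WT), all aged 14 months and labelled as receiving no treatment. Altre is a long non-coding RNA of Tregs, and the comparison asks which transcripts of aged liver Tregs differ in its absence. The labels give neither strain nor sex, nor how Tregs were isolated, nor whether each library is a mouse of its own. The p-values therefore measure only how these libraries scatter, and that scatter may be technical.

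A typical TRIM protein carries a RING domain that passes ubiquitin on from a conjugating enzyme, then B-box zinc fingers and a coiled coil through which it pairs, and a variable C-terminal domain that picks its target. Several members are induced by interferon and act against viruses, either by gripping viral parts or by tuning the sensors and kinases that switch interferon genes on. Others act in chromatin silencing, vesicle and organelle turnover, the cytoskeleton or the cell cycle.

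The libraries held 25315425 to 30870786 counts over the genes listed. No row carried the name Altre, so the genotype labels were not checked by the deleted gene. The Treg label was checked with 11 T cell and Treg markers, all of them in the table, whose summed level was 6637 to 8025 CPM (counts scaled by TMM to a common library total) in Altre-KO and 6467 to 8122 CPM in Altre-WT. Foxp3 averaged 108 ± 32.5 CPM in Altre-KO and 79.2 ± 7.91 CPM in Altre-WT (SD, n = 3 each). Of the 11, 6 had a higher and 5 a lower mean in Altre-KO. Higher in every Altre-KO library, with an unadjusted p under 0.05 by edgeR, were 3 of them, namely Cd4 (log2 fold change 0.44), Il2ra (0.51) and Lrrc32 (1.196). Over all genes tested, 5.6% were higher in every Altre-KO library and 2.72% were higher at that p. The 5 with a lower mean (Ikzf2, Tnfrsf18, Tnfrsf4, Nt5e and Tigit) all overlapped between the genotypes. Transcripts that mark macrophages, including the Kupffer cells that reside in liver, were also present. Of 17 such markers 16 had a row and the Kupffer cell gene Clec4f had none, and 15 of the 16 tested had a higher mean in Altre-KO. The exception was C1qc, at 8.81 CPM in Altre-KO and 20.4 CPM in Altre-WT. Cybb, the largest part of their sum, averaged 231 CPM in Altre-KO and 227 CPM in Altre-WT, with overlap. The sum of the 16 was 486 to 608 CPM in Altre-KO, against 400.2 to 470 CPM in Altre-WT, so these groups did not overlap. Nor did the summed endothelial and stellate cell markers, at 141 to 159 CPM in Altre-KO and 97.2 to 128 CPM in Altre-WT, nearly all of it Pecam1. Of 8 markers of CD8 T and NK cells 5 had a row, and Cd8a, Ncr1 and Klrd1 had none. The 5 summed to 43.2 to 48.8 CPM in Altre-KO and 34.8 to 37.0 CPM in Altre-WT, also without overlap. Most of that sum was Prf1 and Cd8b1, while Gzma had a lower mean in Altre-KO (1.27 CPM, against 3.04 CPM in Altre-WT). Markers of B cells summed to 84.9 to 106 CPM in Altre-KO and 83.4 to 101 CPM in Altre-WT, with overlap. The part of these markers in the TRIM values was not tested. Of 8 hepatocyte markers only Trf had a row, at 1.07 to 2.55 CPM in Altre-KO and 0.702 to 1.07 CPM in Altre-WT. In such bulk libraries, fewer cells of a type and less RNA per cell cannot be told apart.

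Many interferon-induced genes carry an interferon-stimulated response element, recognised by IRF-family factors, and its core was searched here as GAAANNGAAA on both strands. RefSeq promoter windows on GRCm38.p6, 250 bases before to 50 bases after each start site, were matched to 32 of the 41 members, 7 of which had more than 1 window. The motif occurred in 3.44% of the 32851 windows of all genes, which is a share of windows and not of genes. At least 1 window held it for 9 of the 32 members. These were 2 of the 3 members that the family's interferon axis is usually read from (Trim21 and Trim30a, but not Trim25), 6 of the 10 other interferon-induced members with a window, and 1 of the 19 members outside those lists (Trim2, in 1 of its windows). The matches of Trim5, Trim12a and Trim12c have the same letters, as do those of Trim30a and Trim30d. The 9 members are therefore not separate occurrences of the motif. A match is a description of the letters and not a measured binding site.

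Shown are 4 windows with a match, in 3 genes with lower and 1 gene (Trim26) with higher means in Altre-KO, and 2 windows without one, of the interferon-induced Trim25 and of Trim59, the member with the smallest p-value. Capitals mark the motif or its reverse complement TTTCNNTTTC.
Trim21 (chr7:102565433-102565732, minus strand): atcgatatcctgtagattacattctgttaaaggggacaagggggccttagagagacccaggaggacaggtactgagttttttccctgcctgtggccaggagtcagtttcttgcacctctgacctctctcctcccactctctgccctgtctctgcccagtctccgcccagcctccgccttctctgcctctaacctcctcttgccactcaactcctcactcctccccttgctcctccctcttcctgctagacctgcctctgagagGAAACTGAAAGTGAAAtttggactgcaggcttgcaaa
Trim30a (chr7:104465144-104465443, minus strand): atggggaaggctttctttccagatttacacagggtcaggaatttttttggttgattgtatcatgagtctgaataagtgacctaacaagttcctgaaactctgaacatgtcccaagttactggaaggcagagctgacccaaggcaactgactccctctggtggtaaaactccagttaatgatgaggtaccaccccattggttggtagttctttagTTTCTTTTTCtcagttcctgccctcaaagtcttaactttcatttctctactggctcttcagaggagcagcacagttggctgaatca
Trim12a (chr7:104315446-104315745, minus strand): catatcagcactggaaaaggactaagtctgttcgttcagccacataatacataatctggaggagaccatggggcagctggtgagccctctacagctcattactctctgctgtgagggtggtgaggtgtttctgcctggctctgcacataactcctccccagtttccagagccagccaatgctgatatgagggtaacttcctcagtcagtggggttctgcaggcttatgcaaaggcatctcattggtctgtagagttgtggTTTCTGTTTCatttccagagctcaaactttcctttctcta
Trim26 (chr17:36836896-36837195, plus strand): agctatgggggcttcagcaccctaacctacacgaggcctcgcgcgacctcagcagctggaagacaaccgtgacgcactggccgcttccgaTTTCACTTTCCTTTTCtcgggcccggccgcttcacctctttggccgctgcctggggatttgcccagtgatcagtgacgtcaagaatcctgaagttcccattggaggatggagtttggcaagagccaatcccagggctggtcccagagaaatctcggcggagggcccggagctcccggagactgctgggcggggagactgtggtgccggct
Trim25 (chr11:88999153-88999452, plus strand): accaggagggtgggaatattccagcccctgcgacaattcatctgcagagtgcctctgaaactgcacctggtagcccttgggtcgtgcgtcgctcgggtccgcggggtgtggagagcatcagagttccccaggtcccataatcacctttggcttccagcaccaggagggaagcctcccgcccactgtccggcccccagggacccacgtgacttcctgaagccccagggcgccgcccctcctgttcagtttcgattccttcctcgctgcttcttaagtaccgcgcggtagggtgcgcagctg
Trim59 (chr3:69044693-69044992, minus strand): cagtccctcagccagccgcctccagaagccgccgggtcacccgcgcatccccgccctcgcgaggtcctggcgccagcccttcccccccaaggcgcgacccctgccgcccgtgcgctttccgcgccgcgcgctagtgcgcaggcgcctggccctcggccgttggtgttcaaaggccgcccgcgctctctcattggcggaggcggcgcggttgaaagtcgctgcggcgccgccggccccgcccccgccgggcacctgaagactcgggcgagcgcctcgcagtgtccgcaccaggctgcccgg
In Trim21 a pair of overlapping matches made 1 run of capitals that began at position 14, counted from the start site as 1. In Trim26 such a run lay upstream, its first base at position -160. The match of Trim12a began at position 11 and that of the Trim30a window at position -36. The window of Trim59 was 76.7% G and C, against 43.7% for Trim30a.

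Trim35 was the most abundant member, and Trim59 and Trim30a followed. Levels were compared between genes per length, in RPKM (CPM per kilobase of annotated exon). Trim35 averaged 52.8 RPKM over the 6 libraries, Trim59 33.5 RPKM and Trim30a 30.4 RPKM. The next were Trim12c at 22.8 RPKM, Trim12a at 21.3 RPKM, Trim34a at 18.6 RPKM and Trim8 at 18.4 RPKM. Thus 4 of the 7 highest levels belonged to interferon-induced members, all from the chromosome 7 cluster described further on. At least 10 RPKM was reached by 12 members, and 11 stayed under 1 RPKM. Of the other members usually read for interferon, Trim25 averaged 8.25 RPKM and Trim21 only 1.35 RPKM. The 6 libraries of Trim35, a SPRY-domain ligase, spanned 209 to 280.5 CPM, and it took 16.2% of the summed CPM of the 41 members.

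**Figure D1:**
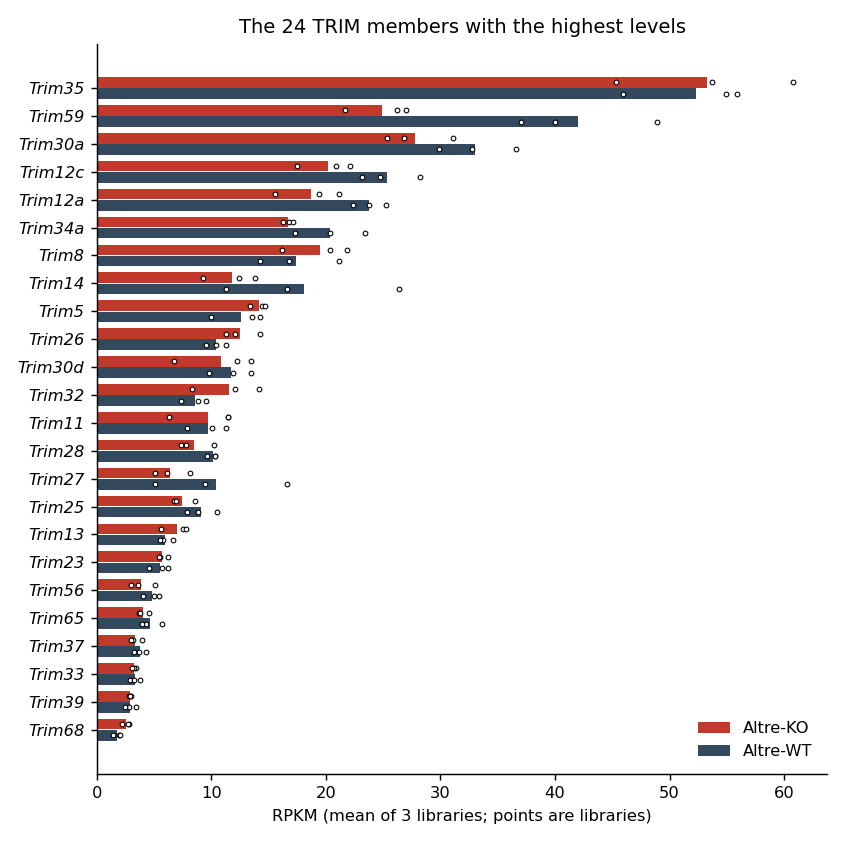
Mean level of the 24 most abundant TRIM members in Altre-KO (red) and Altre-WT (dark blue), in RPKM on a linear axis, with open points for the 3 libraries of each genotype. Trim35 stood highest at 52.8 RPKM over all libraries. The points of the genotypes did not overlap for Trim59, Trim12a, Trim12c, Trim34a and Trim68, nor, narrowly, for Trim26.

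Trim59 had lower values in every Altre-KO library than in any Altre-WT library. It encodes a RING ligase anchored in the membrane of the endoplasmic reticulum that has been reported to bind the adaptor ECSIT and to restrain NF-kB and IRF signalling. Trim59 (chromosome 3, 69035288 to 69044755, GRCm38, minus strand) had 2294, 1820 and 2722 counts in Altre-KO replicates 1, 2 and 3, against 4754, 3384 and 3362 counts in Altre-WT replicates 1, 2 and 3. Scaled to library size these were 90.5, 72.6 and 87.7 CPM in Altre-KO and 164, 134 and 124 CPM in Altre-WT. The genotypes did not overlap, and Altre-WT replicate 1 was the highest library. The log2 fold change, Altre-KO over Altre-WT, was -0.75 ± 0.15 (SE), with a 95% interval from -1.09 to -0.42. In edgeR's quasi-likelihood test the unadjusted p was 0.000566 and the adjusted p 0.632 (Benjamini-Hochberg over 12789 genes). DESeq2 with genotype as the only term gave an adjusted p of 0.00682, so the call depends on the tool. In the authors' deposited table the change of Trim59, read as Altre-KO over Altre-WT, is -0.75 on the log2 scale with a standard error of 0.14 and an adjusted p of 1.95e-05. That table does not state its model terms, and it differs from the fits above by more than the tool. Over all genes its log2 fold changes lay a median of 0.000191 from a DESeq2 fit that also has the replicate number as a block, against 0.0189 from the DESeq2 fit with genotype only. The blocked fit called 247 genes, as does the table, and 244 were shared. Trim13, the other member anchored in that membrane, which acts in protein quality control there, had 12.4, 12.8 and 9.28 CPM in Altre-KO and 11.0, 9.46 and 9.09 CPM in Altre-WT. Its values overlapped, with a log2 fold change of 0.22 ± 0.25 (SE) and an unadjusted p of 0.397 by edgeR, and ranged from 0.12 to 0.35 with 1 library left out.

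No TRIM member was called by edgeR at an adjusted p of 0.05, where 0% of the 12789 genes tested were called. DESeq2 called 46 genes, 0.339% of those it could adjust, among them Trim59 and no other member. limma-voom called 0, and by edgeR 744 genes (5.82%) had an unadjusted p under 0.05. The authors' deposited table calls a single member, Trim59, which is 1 of 41 (2.44%), where 1.82% of all its genes are called, 1.37% as lower and 0.441% as higher in Altre-KO. Low counts kept Trim10, Trim30b and Trim30c out of the test, and 38 members passed the filter. Of these 38, 3 had an unadjusted p under 0.05, all lower in Altre-KO, where 3.1% of all genes tested were lower and 2.72% higher at that threshold. They were Trim59, Trim12a and Trim12c. The count was 1 without Altre-WT replicate 1, when Trim59 alone was left, and 5 without Altre-WT replicate 3. In 6 of the 38 the genotypes did not overlap, 15.8% against 10.3% of all genes tested. Every Altre-KO library was below every Altre-WT library for 4 members (Trim59, Trim12a, Trim12c and Trim34a), as for 4.67% of all genes tested. Every Altre-KO library was above for 2 members (Trim26 and Trim68), as for 5.6% of all genes tested. The 38 split into 21 with a lower and 17 with a higher mean in Altre-KO, and their log2 fold changes had a median of -0.06, while over all genes tested the median was 0.0039 with 49.2% lower.

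**Figure D2:**
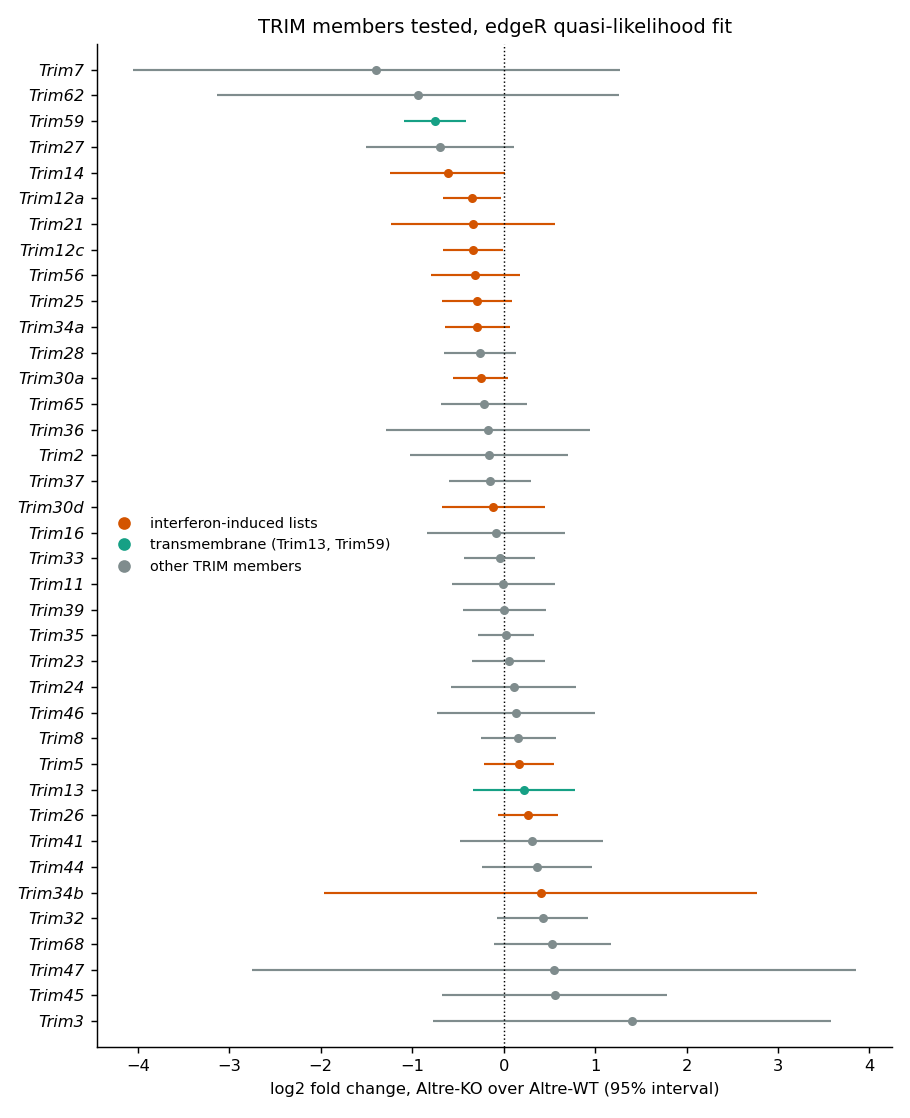
Log2 fold change of each of the 38 TRIM members tested, Altre-KO over Altre-WT, with its 95% interval from the edgeR fit, ordered from the most negative at the top. Interferon-induced members (orange) lie mostly left of 0, Trim59 and Trim13 (green) lie on opposite sides, and the widest intervals belong to low-count members such as Trim47.

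The 3 members most used as interferon-induced representatives each had a lower mean in Altre-KO, and each overlapped between the genotypes. Trim21, a cytosolic antibody receptor that marks antibody-coated viruses for the proteasome and is also the autoantigen Ro52, had 5.6, 5.22 and 2.45 CPM in Altre-KO replicates 1, 2 and 3 and 5.52, 6.38 and 4.84 CPM in Altre-WT. The groups overlapped, and replicate 3 was the lowest library of each genotype. Its log2 fold change was -0.34 with a 95% interval from -1.23 to 0.56, resting on 76 to 161 counts a library. Without Altre-KO replicate 3 it was -0.042.

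Trim25 adds ubiquitin chains in the pathway of the RNA sensor RIG-I and is a cofactor of the antiviral protein ZAP. It had 38.9, 49.3 and 39.9 CPM in Altre-KO and 60.5, 50.9 and 45.3 CPM in Altre-WT. Altre-KO replicate 2 lay above Altre-WT replicate 3, so the groups overlapped. The log2 fold change was -0.29, with an interval from -0.68 to 0.10 and an unadjusted p of 0.125 by edgeR. Without Altre-WT replicate 1 the value was -0.17.

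Trim30a, a mouse gene induced by Toll-like receptors and interferon whose product limits NF-kB activation, had 110.3, 104 and 128 CPM in Altre-KO and 150.4, 123 and 135 CPM in Altre-WT. Only Altre-KO replicate 3 and Altre-WT replicate 2 crossed. The log2 fold change was -0.25, with an interval from -0.55 to 0.05 and an unadjusted p of 0.0934 by edgeR. The intervals of these 3 genes included 0 and the interval of Trim59 did not, but this alone does not show that they differ.

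Set against these genes inside each library, the share of Trim59 was compared as a ratio of RPKM. Trim59 over Trim30a was 1.01, 0.854 and 0.841 in Altre-KO replicates 1, 2 and 3, against 1.34, 1.34 and 1.13 in Altre-WT. Trim59 over Trim25 was 3.99, 2.53 and 3.77 in Altre-KO, against 4.65, 4.52 and 4.71 in Altre-WT. Both ratios were lower in all Altre-KO libraries, and each had p = 0.1 in a two-sided exact permutation test, the smallest p that 3 libraries against 3 can give. Trim59 was already known to be lower in every Altre-KO library, so these ratios are not separate support for its difference. Trim59 over Trim21 was 17.9, 15.4 and 39.7 in Altre-KO and 32.9, 23.3 and 28.4 in Altre-WT, and these overlapped (p = 0.5, same exact permutation test). The 2 other pairs computed, Trim12a over Trim30a (p = 0.4) and Trim14 over Trim25 (p = 0.6, same exact permutation test), overlapped, and with 3 libraries against 3 none of the 5 could pass 0.05.

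**Figure D3:**
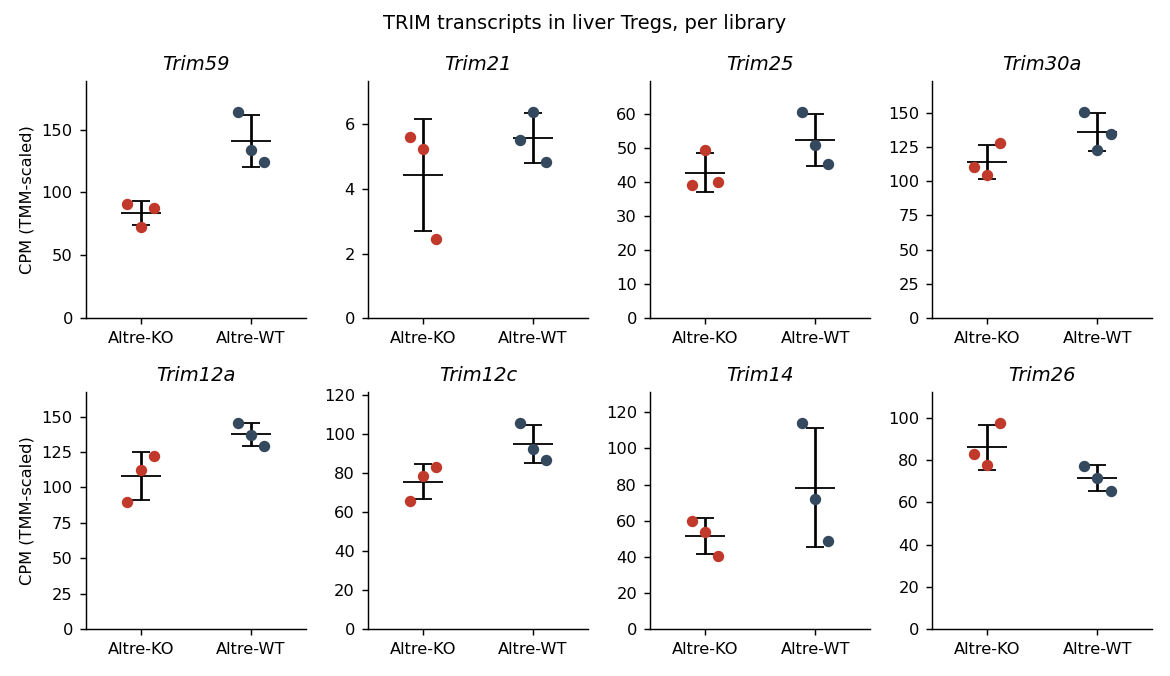
Level of 8 TRIM members in each library, in CPM on axes that start at 0, with Altre-KO (red) left of Altre-WT (dark blue); bars give the mean and SD of 3 libraries. Trim59, Trim12a and Trim12c are lower in all Altre-KO libraries, Trim26 is narrowly higher in all of them (not with RLE size factors or without TMM), and Trim21, Trim25, Trim30a and Trim14 overlap.

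Among the other interferon-induced members, 11 had a row and 9 were tested. Of these, 6 had a lower and 3 a higher mean in Altre-KO, and the median of their log2 fold changes was -0.29. Without Altre-WT replicate 1 this median was -0.17. Together with the 3 above, 9 of 12 had a lower mean. The same count was 10 without Altre-WT replicate 2 and 9 in each of the other alternative fits, which were counted after seeing the data. Members outside the interferon lists split into 12 lower and 14 higher of 26 tested and had a median of 0.02. The lists had been chosen with results of these data known, so these counts describe the members only.

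Trim12a, Trim12c and Trim5 are the mouse relatives of primate TRIM5, which binds incoming retroviral capsids. Trim12a had 89.8, 112 and 122 CPM in Altre-KO, against 146, 137 and 129.5 CPM in Altre-WT, without overlap. Its log2 fold change was -0.35 ± 0.14 (SE), with an unadjusted p of 0.0359 and an adjusted p of 0.842 by edgeR. Trim12c had 65.4, 78.0 and 82.8 CPM in Altre-KO, against 105.6, 92.3 and 86.5 CPM in Altre-WT, also without overlap, and a log2 fold change of -0.33 ± 0.15 (SE; unadjusted p 0.0483, adjusted p 0.849, edgeR). In both genes Altre-KO replicate 1 was the lowest library and Altre-WT replicate 1 the highest. Without Altre-KO replicate 1 the log2 fold changes were -0.23 for Trim12a (unadjusted p 0.128) and -0.24 for Trim12c (unadjusted p 0.154, edgeR). Trim5 had a higher mean in Altre-KO, with 53.2, 54.3 and 49.2 CPM in Altre-KO and 52.6, 49.97 and 36.6 CPM in Altre-WT, with overlap (log2 fold change 0.17 ± 0.17, SE).

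These counts are uncertain as levels of single genes, because the 3 share sequence. Of the distinct stretches of 50 bases in Trim12c transcripts, 24.2% also occur in Trim5 and 6.4% in Trim12a. In all 33.7% of Trim12c, 36.6% of Trim5 and 10.5% of Trim12a stretches occur in some other gene, and how reads shared by several genes were counted is not given in the sources used here.

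Trim34a, whose human relative TRIM34 also acts on retroviral capsids, had 43.6, 42.0 and 44.4 CPM in Altre-KO and 60.8, 44.9 and 52.8 CPM in Altre-WT, narrowly without overlap (log2 fold change -0.29 ± 0.16, SE; unadjusted p 0.104, edgeR). It shares 59.7% of its 50-base stretches with other genes, 39.8% with its copy Trim34b, which had only 2 to 27 counts a library. Trim30d, a neighbour and relative of Trim30a, had 25.2, 50.6 and 46.1 CPM in Altre-KO and 50.4, 36.9 and 44.7 CPM in Altre-WT, with overlap. Their remaining relatives were close to absent. Trim30c had 0, 0 and 65 counts in Altre-KO and 14, 6 and 0 in Altre-WT, and Trim30b had 0, 0 and 31 in Altre-KO and 18, 1 and 0 in Altre-WT. Both were seen mainly in Altre-KO replicate 3 and were not tested.

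Those 9 genes (Trim34a, Trim5, Trim12a, Trim34b, Trim12c, Trim30b, Trim30c, Trim30a and Trim30d) lie together on chromosome 7 between 104244457 and 104507849 (GRCm38). Of the 7 tested, 5 had a lower mean in Altre-KO. Their summed level was 389, 442 and 476.5 CPM in Altre-KO replicates 1, 2 and 3, against 567, 484 and 485.5 CPM in Altre-WT, without overlap but with only a narrow gap between Altre-KO replicate 3 and Altre-WT replicate 2. Trim21, Trim68 and Trim3 lie further out on the same chromosome, from 102557921 to 105633571, and Trim28 lies far from them.

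Trim14, an adaptor without a RING domain that joins the mitochondrial MAVS complex, had 59.8, 53.7 and 40.3 CPM in Altre-KO, against 114, 72.0 and 48.8 CPM in Altre-WT. Altre-WT replicate 1 stood well above the others, and the groups overlapped. The log2 fold change was -0.61 ± 0.28 (SE), with an unadjusted p of 0.0544 by edgeR, and it ranged from -0.88 to -0.24 with 1 library left out. The authors' deposited table gives Trim14 a p of 0.00198 and an adjusted p of 0.0817. It shares 31.3% of its exon bases with Nans on the opposite strand, and the use of strand in counting is not given in the sources used here. Nans averaged 117 ± 3.36 CPM in Altre-KO and 121.5 ± 13.8 CPM in Altre-WT (SD, n = 3 each).

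Trim26, which has been reported to lead nuclear IRF3 to degradation, was the member of these lists with higher values in every Altre-KO library. It had 82.8, 77.6 and 97.8 CPM in Altre-KO, against 77.5, 71.7 and 65.4 CPM in Altre-WT. Altre-KO replicate 2 and Altre-WT replicate 1 nearly met, and they overlapped with RLE size factors or without TMM scaling. The log2 fold change was 0.27 ± 0.15 (SE; unadjusted p 0.0959, edgeR). Trim56, a restriction factor of RNA viruses in human cells, had 27.5, 47.1 and 33.5 CPM in Altre-KO and 37.7, 46.1 and 50.1 CPM in Altre-WT, with overlap.

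Split by the promoter motif instead of by list, 7 of the 9 members with a match had a lower mean in Altre-KO and 2 (Trim5 and Trim26) had a higher mean, and the median of the log2 fold changes was -0.25. Of the 20 tested members whose windows held no match, 8 were lower and 12 higher, with a median of 0.08. Trim59 and Trim25 were among those 8, and the members with matches are largely those of the interferon lists and of the chromosome 7 cluster.

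**Figure D4:**
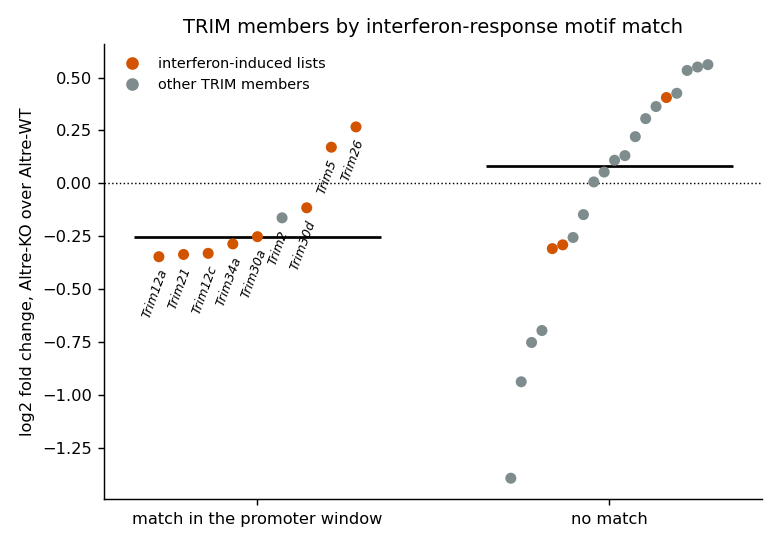
Log2 fold change, Altre-KO over Altre-WT, of the 9 TRIM members with a GAAANNGAAA match in a promoter window (left) and of the 20 tested members without one (right); black lines are medians, at -0.25 and 0.08. Named on the left, all but Trim5 and Trim26 lie below 0, while the right-hand group spans both sides.

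For scale, 35 interferon-induced genes of other families were read, a list also chosen with results known. All were tested and 32 had a lower mean in Altre-KO, against 49.2% of all genes tested. Of these 32, 17 had an unadjusted p under 0.05 (edgeR), where 3.1% of all genes tested were lower at that threshold. Over the 35 the median log2 fold change was -0.32. At an adjusted p of 0.05 edgeR and limma-voom called 0 of the 35, DESeq2 called 6, and 10 are called in the authors' deposited table. Over all genes, DESeq2 called 0.339% of those it could adjust, and 1.82% are called in the authors' deposited table. Irf9, a transcription factor of the interferon response, averaged 265 ± 14.7 CPM in Altre-KO and 316 ± 20.9 CPM in Altre-WT (SD, n = 3 each). Of the RNA and DNA sensing genes that TRIM proteins act on, 15 were tested, with 10 lower and 5 higher. Among the 10 lower, Ddx58, Ifih1, Dhx58 and Irf7 also belong to the 35 above, so the 2 lists are not separate. An unadjusted p under 0.05 by edgeR was reached by 2 of the lower, Irf7 among them, and 1 of the higher. Over all genes tested, 3.1% were lower and 2.72% higher at that threshold. Ddx58, which encodes RIG-I, the sensor that Trim25 acts on, averaged 89.3 ± 1.88 CPM in Altre-KO and 101 ± 19.2 CPM in Altre-WT, and Mavs averaged 47.7 ± 9.07 CPM in Altre-KO and 47.7 ± 5.23 CPM in Altre-WT. Most markers of macrophages and Kupffer cells had a higher mean in Altre-KO in the same libraries, as given above. The part of such cells in the values of the interferon-induced genes was not tested.

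The 3 chromatin members, known as TIF1 proteins, overlapped between the genotypes. Trim28, the corepressor that zinc finger proteins recruit to silence transposable elements, had 32.3, 42.6 and 30.7 CPM in Altre-KO and 42.9, 43.0 and 40.1 CPM in Altre-WT, with Altre-KO replicate 2 inside the range of Altre-WT (log2 fold change -0.26 ± 0.18, SE). It was -0.43 without Altre-KO replicate 2 and -0.16 without Altre-KO replicate 3. Trim33, which regulates SMAD4 signalling, averaged 31.7 CPM in Altre-KO and 32.7 CPM in Altre-WT, with a 95% interval of the log2 fold change from -0.43 to 0.34. Trim24, a coregulator of nuclear receptors, averaged 8.92 CPM in Altre-KO and 8.27 CPM in Altre-WT. The smallest unadjusted p among the 3 was 0.177 by edgeR, for Trim28.

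Of the members with NHL repeats, Trim32, mutated in a muscular dystrophy, had 45.7, 26.8 and 38.9 CPM in Altre-KO and 23.8, 30.7 and 28.5 CPM in Altre-WT, with Altre-KO replicate 2 inside the range of Altre-WT (log2 fold change 0.43 ± 0.22, SE; unadjusted p 0.0838, edgeR). Without Altre-KO replicate 1 the value was 0.25. Trim2, a ligase of neurons, had 29.3, 14.4 and 10.2 CPM in Altre-KO and 27.97, 15.6 and 16.6 CPM in Altre-WT, and replicate 1 was the highest library in both genotypes. Trim3 had 79, 24 and 154 counts in Altre-KO and 29, 2 and 63 counts in Altre-WT, and the interval of its log2 fold change, from -0.77 to 3.58, covered both directions. The authors' deposited table gives Trim3 a p of 0.0155 and an adjusted p of 0.289.

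The largest set holds the 13 members placed in none of the other role groups. Of these, 12 were tested, 5 lower and 7 higher in Altre-KO, with log2 fold changes that had a median of 0.02. Trim27 has been reported to restrain CD4 T cell activation through the kinase PI3K-C2beta. It had 44.6, 27.8 and 33.5 CPM in Altre-KO and 91.4, 52.1 and 27.96 CPM in Altre-WT, overlapping, with Altre-WT replicate 1 far above the rest (log2 fold change -0.69 ± 0.36, SE; unadjusted p 0.0846, edgeR). The value ranged from -1.04 to -0.18 with 1 library left out. Trim68, described as a coactivator of the androgen receptor, had 9.86, 7.66 and 9.41 CPM in Altre-KO and 6.59, 4.95 and 7.05 CPM in Altre-WT, without overlap (log2 fold change 0.53 ± 0.29, SE; unadjusted p 0.0920, edgeR).

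Trim35 had 280.5, 248 and 209 CPM in Altre-KO and 254, 258 and 212 CPM in Altre-WT, and replicate 3 was the lowest of each genotype. Its log2 fold change of 0.03 had an interval from -0.28 to 0.34. Trim8, a regulator of cytokine and NF-kB signalling, had 75.4, 60.1 and 81.1 CPM in Altre-KO and 53.0, 62.3 and 78.4 CPM in Altre-WT, with overlap. Trim11 averaged 34.8 CPM in Altre-KO and 34.9 CPM in Altre-WT, and Trim39 averaged 21.05 CPM in Altre-KO and 20.95 CPM in Altre-WT. Trim41 averaged 5.39 CPM in Altre-KO and 4.35 CPM in Altre-WT. Trim65, described as a partner of the RNA sensor MDA5, averaged 23.5 CPM in Altre-KO and 27.3 CPM in Altre-WT. The genotypes overlapped for each of these 4. Trim45 ranged from 3.51 to 9.05 CPM in Altre-KO and from 1.55 to 7.17 CPM in Altre-WT. Trim7, Trim47 and Trim62 were rare, with 0 to 91 counts a library, and Trim10 had 16, 0 and 0 counts in Altre-KO and 42, 0 and 0 in Altre-WT.

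In the small remaining groups the lowest unadjusted p was 0.207 (edgeR), for Trim44. Trim23, which also has an ARF GTPase domain, averaged 32.8 CPM in Altre-KO and 31.6 CPM in Altre-WT, and Trim37, the MATH-domain member that limits centriole assembly, 24.3 CPM in Altre-KO and 27.0 CPM in Altre-WT. The microtubule-associated Trim36 averaged 2.40 CPM in Altre-KO and 2.70 CPM in Altre-WT, and its relative Trim46 averaged 4.44 CPM in Altre-KO and 4.05 CPM in Altre-WT. Of the members without a RING domain, Trim16, which takes part in clearing damaged lysosomes, averaged 7.66 CPM in Altre-KO and 8.12 CPM in Altre-WT, and Trim44 averaged 12.8 CPM in Altre-KO and 9.93 CPM in Altre-WT. Every one of these 6 genes overlapped between genotypes.

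Libraries did not weigh equally on the family. Altre-WT replicate 1 was the highest library for 15 of the 41 members (36.6%), against 18.5% of all genes tested, and Altre-WT replicate 3 for 2 (4.88% against 16.8%). Among those 15 were Trim59, Trim25, Trim30a, Trim12a, Trim12c, Trim34a, Trim14 and Trim27. The summed level of all members was 1451, 1395 and 1430 CPM in Altre-KO replicates 1, 2 and 3, against 1772, 1543 and 1472 CPM in Altre-WT. Every Altre-KO library lay below every Altre-WT library, with the smallest gap between Altre-KO replicate 1 and Altre-WT replicate 3. Trim59 is part of these sums, at 90.5 CPM in Altre-KO replicate 1 and 124 CPM in Altre-WT replicate 3. That difference exceeds the gap between the sums of these libraries, so the sums would not separate without Trim59. The same holds for Trim12a, at 89.8 CPM in Altre-KO replicate 1 and 129.5 CPM in Altre-WT replicate 3. The separation of the sums is therefore narrow and not particular to Trim59. The median log2 fold change of all genes was within 0.02 of 0 under each scaling and each left-out library.

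**Figure D5:**
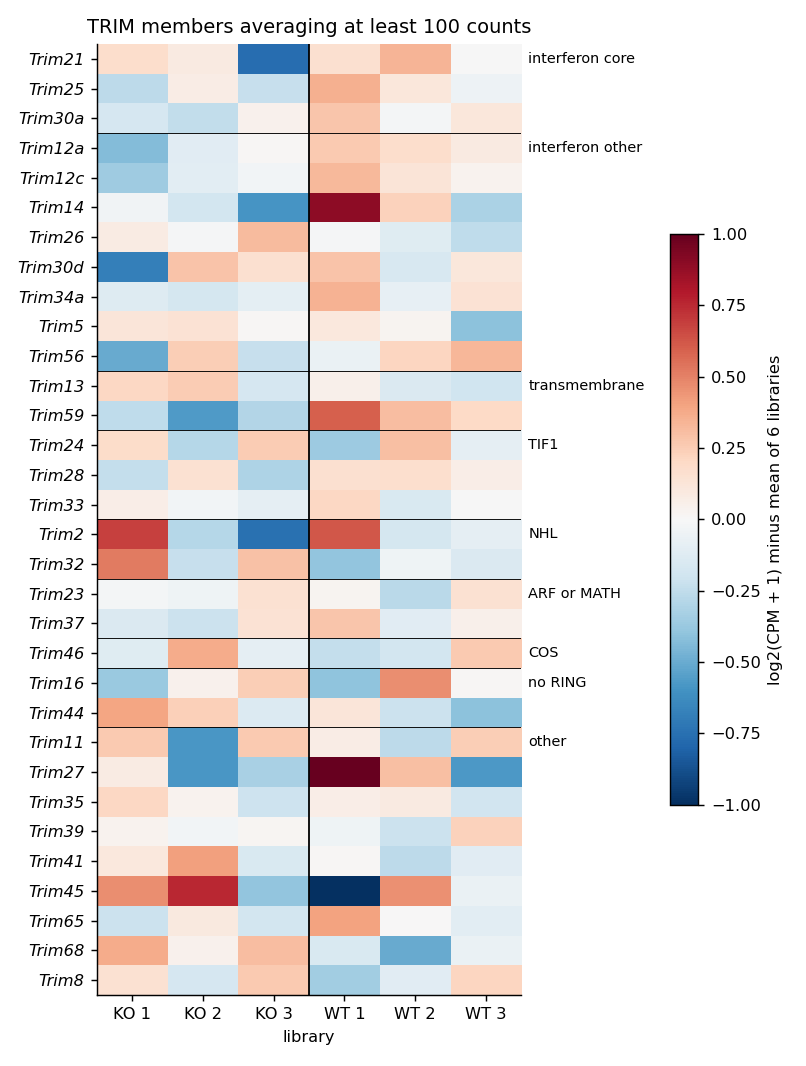
Level of the 32 TRIM members averaging at least 100 counts in each library, as log2(CPM + 1) minus the mean of the 6 libraries, with colours limited to -1 to 1, Altre-KO libraries left of Altre-WT libraries and members grouped by role. The column of Altre-WT replicate 1 is red for most interferon-induced members and darkest for Trim14 and Trim27, while Trim45 is lowest there.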

How the data were processed

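The 6 libraries were made from RNA purified with a micro-scale kit and a SMARTER mRNA kit, per the labels' protocols. The authors deposited a table of whole-number counts of each gene in each library, treated here as raw. They also deposited a mean normalized count (a signal over the 6 libraries), log2 fold changes and their standard errors, Wald statistics (scores without a fixed range), p-values and adjusted p-values, per the file headers. Per the submitters' processing notes, the tools were DESeq2, STAR and cutadapt and the build was mm10. The counter, annotation and strand used are not stated in those sources. The smallest deposited mean was 5.96, so totals cover listed genes only. The 18 rows whose names had become dates (0.2945% to 0.3078% of counts) were left out, which left 13605 genes.

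The test across genes was that of edgeR 4.0.16, run in R 4.3.3 (TMM, filterByExpr, quasi-likelihood F test, genotype only), which kept 12789 genes. Standard errors are the fold change over the square root of F. limma 3.58.1 (voom) and DESeq2 1.42.0 were alternatives. The test was checked on simulated counts. Within a genotype no pair of libraries was as alike as counting noise allows (chi-square per gene 40.4 to 73.0), so none looked like 1 library deposited again. This does not show that they came from separate animals. Exon lengths and positions are of GENCODE M21 on GRCm38, the assembly of mm10. Members, role lists, tests and the naming rule were chosen with earlier results of these data known. The rule named Trim21, Trim25, Trim30a, Trim59, members with an unadjusted p under 0.05, members called in the authors' deposited table, and the 2 members of each role list with the highest counts, 19 in all. The others were named after their values were seen.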

Additional observations from a re-analysis of the deposited data

How the results depend on the processing

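The direction of Trim21, Trim25, Trim30a, Trim12a, Trim12c and Trim59 held in all 14 alternative fits, with log2 fold changes of -0.85 to -0.63 for Trim59 and -0.54 to -0.042 for Trim21. Adjusted p-values of Trim59 ran from 2.14e-05 to 1 over these fits, the lowest from DESeq2 with the replicate block. Genes called at an adjusted p of 0.05 numbered 0 by edgeR, 46 by DESeq2, 0 to 1 with 1 library left out, and 0 by limma-voom and under the other scalings and filters. TRIM members with an unadjusted p under 0.05 numbered 3 by edgeR, 5 by DESeq2 (6.95% of all genes) and 1 to 5 with 1 library left out (4% to 7.81% of all genes), and Trim59 was among them in each of the 14. Members without overlap numbered 6, or 5 under RLE size factors and without TMM. The replicate numbers were not shown to pair the libraries: deviations correlated at 0.219, 0.136 and 0.073 for numbers 1, 2 and 3, and every library correlated best with its own number, a hint from the data and not the design. With the replicate block 16 genes were called by edgeR and 247 by DESeq2, and TRIM members with an unadjusted p under 0.05 numbered 4 by edgeR (8.62% of all genes) and 6 by DESeq2 (9.52%). In edgeR with that block Trim59 had an adjusted p of 0.0791, and the unadjusted p was 0.008 for Trim14 and 0.0302 for Trim3. The authors' deposited table is close to the blocked DESeq2 fit. With 1 library left out the sign turned for 13 of the 38 tested members, a count added after seeing the data, and the value moved by over 1.5 times for 34. Of the 19 members named by rule it turned for 7, over ranges of -0.29 to 0.19 (Trim16), -0.71 to 0.15 (Trim2), -0.0708 to 0.14 (Trim23), -0.14 to 0.0645 (Trim33), -0.0766 to 0.13 (Trim35), -0.34 to 0.044 (Trim36) and -0.10 to 0.34 (Trim46). The cause of these changes was not tested. Depth limits most the 9 members that averaged under 100 counts a library, Trim30b, Trim47, Trim10, Trim30c, Trim34b, Trim7, Trim62, Trim3 and Trim36.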

Other observations

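Relatives of the family under other names were read beside it. Pml, an interferon-induced TRIM protein that builds nuclear bodies, averaged 63.7 ± 15.4 CPM in Altre-KO and 58.6 ± 23.8 CPM in Altre-WT (SD, n = 3 each), with overlap. Rnf135, the RIG-I ligase also called Riplet, averaged 28.2 ± 8.64 CPM in Altre-KO and 33.8 ± 3.59 CPM in Altre-WT. Mid1, a microtubule-associated relative, had 124, 106 and 118 counts in Altre-KO, against 101, 61 and 39 counts in Altre-WT, and a log2 fold change of 0.81 ± 0.46 (SE; unadjusted p 0.108 by edgeR).

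Of 11 tested ubiquitin-conjugating enzymes that serve RING ligases, 9 had a lower mean in Altre-KO and the smallest unadjusted p was 0.06 (edgeR), with a median log2 fold change of -0.11. Ube2n, which builds the signalling ubiquitin chains of several TRIM proteins, averaged 207 ± 19.6 CPM in Altre-KO and 222 ± 17.9 CPM in Altre-WT (SD, n = 3 each). Ube2d3 averaged 315 ± 29.3 CPM in Altre-KO and 419 ± 126 CPM in Altre-WT, with its highest value in Altre-WT replicate 1. The genotypes did not overlap for 2 of the 11, 1 in each direction, where 10.3% of all genes tested did not overlap. Ube2e3 had 5.05, 5.14 and 4.67 CPM in Altre-KO, against 7.24, 6.30 and 8.05 CPM in Altre-WT (log2 fold change -0.54 ± 0.30, SE; unadjusted p 0.103, edgeR). Ube2w had a higher mean in Altre-KO, at 62.3 ± 2.77 CPM in Altre-KO and 51.0 ± 3.77 CPM in Altre-WT (log2 fold change 0.29 ± 0.14, SE; unadjusted p 0.0647, edgeR).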
